A study of Mus musculus with 3 samples.

Results

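The 9 genes described here encode parts of the MHC class I presentation route: the heavy chains H2-K1, H2-D1, H2-Q7 and H2-T23, the light chain B2m, the peptide transporter subunits Tap1 and Tap2, the loading factor Tapbp and the transcriptional activator Nlrc5. They were taken by gene symbol from the 32285 genes listed in each library. The rule used no measured value, but the members were chosen with earlier results of these data known. The MC38 line, from a mouse colon carcinoma, was grown as tumours, and T cells sorted for CD3 on day 15, following 5 days of treatment, went into single-cell RNA libraries made with a 10x Genomics 3′ kit. The series title names interleukin-2 aimed at LAG3, which is an inhibitory receptor on activated T cells. The 3 groups carry the labels PBS, mix and homo, and each is 1 library. What mix and homo stand for, and the strain, age and number of mice behind each library, are not given in the sources used here, so the groups are called by their labels.

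Class I molecules carry short peptides from inside the cell to its surface, where CD8 T cells read them. The TAP transporter, a pair of Tap1 and Tap2, moves peptides into the endoplasmic reticulum, and tapasin, the product of Tapbp, holds empty pairs of heavy chain and B2m beside it until a peptide fits. H2-K1 and H2-D1 are the classical heavy chains, while H2-Q7 and H2-T23 are non-classical ones, and the H2-T23 product is a ligand of the CD94 and NKG2A receptor pair. T cells themselves make class I molecules in quantity, and NLRC5 and factors downstream of interferons are known activators of the whole group.

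Each library was split by its own lineage UMIs (unique molecular identifiers, the counted transcripts). Barcodes with a CD3 gene and Cd8a or Cd8b1 but no Cd4 or Foxp3 formed the CD8 gate, those with Cd4 and no CD8 gene or Foxp3 the CD4 gate, and those with Foxp3 and no CD8 gene the Foxp3 gate. The CD8 gate held 7117 barcodes in PBS, 5587 in mix and 6517 in homo, the CD4 gate 317, 309 and 70, and the Foxp3 gate 842, 807 and 124. Libraries held 49179708 to 65336646 UMIs, with a median per barcode of 4748 in PBS, 4955 in mix and 6582 in homo. Pairs of libraries shared 100 to 131 barcode sequences. Median UMIs per barcode were 5113 to 6912 in the CD8 gates, 2509 to 3424.5 in the CD4 gates and 3093 to 3472 in the Foxp3 gates. The summed regulatory T cell list (Foxp3, Il2ra, Ctla4, Ikzf2, Tnfrsf4 and Ccr8) stood at 5634 to 7484 CPM (the gene's UMIs over all UMIs of the gate, on the usual CPM scale) in the Foxp3 gates, 2045 to 2692.5 in the CD4 gates and 460 to 550 in the CD8 gates. With 1 library per group no difference below has a replicate check, no test was made, and every interval is a 95% interval that covers counting error only.

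Promoter sequence is shown for the members whose values are set against each other below. RefSeq's table on build GRCm38.p6 matched 7 of the 9 members, and Tap2 and Nlrc5 were not matched. The 250 bases before the annotated start are printed for H2-K1 (chr17:34000334-34000583, minus strand, the later of 2 listed starts), H2-D1 (chr17:35262844-35263093, plus strand), H2-Q7 (chr17:35438905-35439154, plus strand), B2m (chr2:122147437-122147686, plus strand) and Tap1 (chr17:34187306-34187555, plus strand). Capitals mark 4 motifs searched on both strands: GGGGATTCC of the NF-kB type, TTTCNNTTC of the interferon response type, TGACG from the cyclic AMP response element, and CCAAT, which reads ATTGG on the other strand. No motif overlapped another.
H2-K1: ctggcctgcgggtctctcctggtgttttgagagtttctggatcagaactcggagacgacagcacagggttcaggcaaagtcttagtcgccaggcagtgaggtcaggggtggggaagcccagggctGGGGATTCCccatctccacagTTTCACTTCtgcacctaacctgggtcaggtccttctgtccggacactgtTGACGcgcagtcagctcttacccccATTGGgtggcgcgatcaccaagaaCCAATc
H2-D1: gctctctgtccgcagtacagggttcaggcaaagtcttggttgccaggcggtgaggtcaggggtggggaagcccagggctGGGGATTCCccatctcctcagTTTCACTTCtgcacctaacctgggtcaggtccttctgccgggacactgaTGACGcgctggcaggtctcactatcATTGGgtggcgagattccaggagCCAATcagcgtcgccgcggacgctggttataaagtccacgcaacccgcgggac
H2-Q7: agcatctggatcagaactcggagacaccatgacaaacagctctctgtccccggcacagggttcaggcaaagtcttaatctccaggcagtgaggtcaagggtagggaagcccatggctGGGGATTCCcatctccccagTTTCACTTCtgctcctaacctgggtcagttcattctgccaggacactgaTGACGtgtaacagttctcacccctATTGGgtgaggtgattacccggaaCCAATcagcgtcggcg
B2m: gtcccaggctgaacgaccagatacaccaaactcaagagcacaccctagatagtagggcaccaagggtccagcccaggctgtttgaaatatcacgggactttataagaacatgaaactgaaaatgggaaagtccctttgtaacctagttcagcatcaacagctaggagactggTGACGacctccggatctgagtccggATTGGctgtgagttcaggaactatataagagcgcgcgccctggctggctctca
Tap1: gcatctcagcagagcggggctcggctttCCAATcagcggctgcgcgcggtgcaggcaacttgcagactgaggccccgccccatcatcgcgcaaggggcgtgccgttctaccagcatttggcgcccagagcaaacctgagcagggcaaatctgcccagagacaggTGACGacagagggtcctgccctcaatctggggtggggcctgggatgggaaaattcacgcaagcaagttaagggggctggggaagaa

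The windows of H2-K1, H2-D1 and H2-Q7 held the same motifs in the same order. GGGGATTCC began 125 bases before the start in H2-K1, 171 in H2-D1 and 133 in H2-Q7, and TTTCNNTTC followed at 104, 150 and 113 bases. Over the whole 300-base windows (250 before and 50 after the start), H2-K1 and H2-D1 were identical at 87.7% of 253 aligned bases, with 1 unbroken shared run of 47 bases that holds the GGGGATTCC match. H2-K1 and H2-Q7 were identical at 86.1% of 267 aligned bases, and H2-D1 and H2-Q7 at 83.5% of 261. Among 32851 promoter windows of 300 bases in the table, GGGGATTCC stood in 0.250%, TTTCNNTTC in 7.52%, TGACG in 20.8% and CCAAT in 37.4%. In the windows of B2m and Tap1 the matches were TGACG and CCAAT, and in those of H2-T23 and Tapbp they were CCAAT. Tap1 lies back to back with Psmb9, an immunoproteasome subunit gene, whose window (chr17:34187281-34187580, minus strand) overlaps that of Tap1. These are matches of the stated letter patterns alone and were not tested for binding. Other forms of such motifs were not searched, so a window without a match may still hold them.

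The heavy chains followed the gates, lowest in the CD8 gate and highest in the Foxp3 gate. H2-K1 stood at 3574 CPM in PBS, 3865 in mix and 3239 in homo in the CD8 gate, at 4595, 4252 and 4834 in the CD4 gate, and at 5510, 5718 and 5964 in the Foxp3 gate, always in that order of libraries. All 3 Foxp3 sums of H2-K1 were above all 3 CD4 sums, and these were above all 3 CD8 sums. H2-D1 stood at 2600, 2908 and 2953 CPM in the CD8 gate, at 3443, 3370 and 3587 in the CD4 gate and at 4053, 4415 and 4927 in the Foxp3 gate. Its gates also did not overlap, and its 3 CD4 sums could not be told apart within their intervals. Homo was the highest library for H2-D1 in the CD8 and Foxp3 gates, while for H2-K1 it was the lowest in the CD8 gate. In the CD4 and Foxp3 gates the H2-K1 interval of homo overlapped that of the next library.

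The non-classical heavy chains differed from each other in how homo stood. H2-Q7, of the Qa region, stood at 664, 770.4 and 591 CPM in the CD8 gate, at 900.0, 819 and 1012 in the CD4 gate and at 1124, 1281 and 1355 in the Foxp3 gate for PBS, mix and homo. From its highest to its lowest sum it spanned 2.29-fold, and homo was at both ends. The H2-Q7 interval of homo overlapped that of the next library in the CD4 and Foxp3 gates. H2-T23 stood at 812, 835 and 619 CPM in the CD8 gate, at 1006, 994 and 671 in the CD4 gate and at 1259, 1328 and 975 in the Foxp3 gate. Homo was the lowest library for H2-T23 in all 3 gates, and its Foxp3 sum lay below the CD4 sums of PBS and mix, with overlapping intervals. H2-Q7 is close in sequence to H2-Q6 and other class I genes, and reads shared between such genes cannot be told apart from these counts.

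B2m, the light chain shared by all class I molecules, varied least of the 9. It stood at 3075, 3160 and 2896 CPM in the CD8 gate, at 3230, 2984 and 2876 in the CD4 gate and at 3441, 3452 and 3628 in the Foxp3 gate. The highest of these 9 sums was 1.26 times the lowest, against 1.84 for H2-K1 and 1.90 for H2-D1. The CD4 and CD8 sums of B2m were interleaved, so its gate order was not that of the heavy chains.

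Both transporter subunits followed the gates as the heavy chains did. Tap1 stood at 282, 293 and 257 CPM in the CD8 gate, at 379, 416 and 345 in the CD4 gate and at 533, 527 and 448 in the Foxp3 gate for PBS, mix and homo. Tap2 stood at 245, 243 and 203 CPM in the CD8 gate, at 330, 347 and 268 in the CD4 gate and at 409, 419 and 362 in the Foxp3 gate. Homo was the lowest library for both subunits in every gate, although within the CD4 gate and within the Foxp3 gate neighbouring sums overlapped in their intervals. Tapbp stood at 315, 355 and 284 CPM in the CD8 gate, at 416, 360 and 250 in the CD4 gate and at 436, 466 and 422 in the Foxp3 gate. Nlrc5, the activator of class I genes, stood at 100.3, 116 and 101 CPM in the CD8 gate, at 122, 149 and 58.0 in the CD4 gate and at 104, 125 and 132 in the Foxp3 gate. Its levels did not order by gate, and the lowest sum, in the CD4 gate of homo, rested on 16 UMIs. CPM compare each gene with itself across gates and libraries, and show no order between genes.

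**Figure D1:**
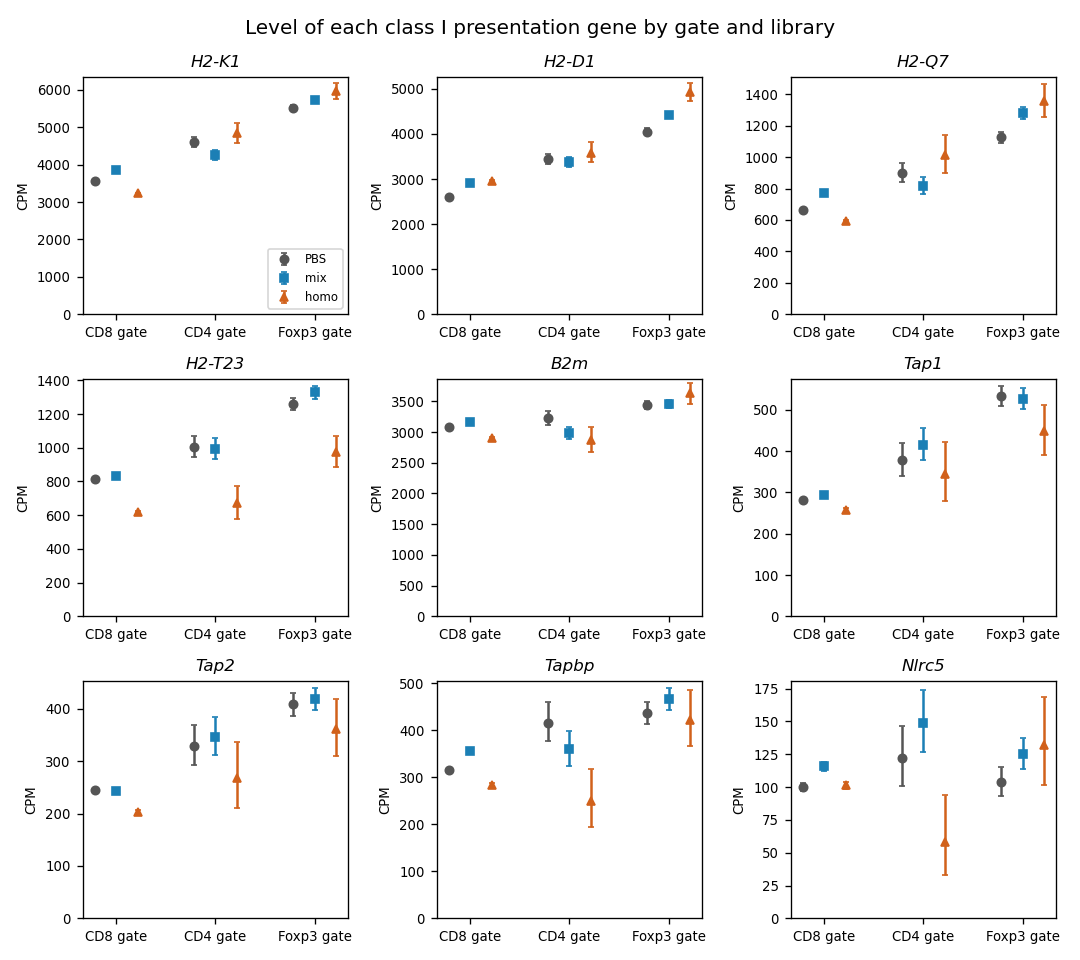
Level of each of the 9 genes, in CPM of the gate's summed UMIs (y axis, from 0), in the CD8, CD4 and Foxp3 gates (x axis) of the PBS, mix and homo libraries; bars are exact Poisson 95% intervals and cover counting error only. H2-K1, H2-D1, Tap1 and Tap2 step up from the CD8 to the Foxp3 gate, B2m stays between 2876 and 3628 CPM, and H2-T23 is lowest in homo in each gate.

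Between the gates of 1 library, the heavy chains and the transporter were higher in the Foxp3 gate than in the CD8 gate. In PBS 6 of the 9 genes were at least 1.5-fold higher, in mix 5 and in homo 6, and none was 1.5-fold lower. Of all genes tested (at least 50 CPM in either sum), 22.3% were 1.5-fold higher and 9.55% lower in PBS, 22.8% and 9.57% in mix, and 29.7% and 10% in homo, so such a difference was common. All 9 members passed the minimum of 50 CPM in all 27 comparisons made. The members' median log2 ratio was 0.63, 0.60 and 0.74, beside 0.18, 0.19 and 0.27 over all genes tested.

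Tap1 had the highest ratio of the 9 in PBS and mix. Its log2 ratio of Foxp3 to CD8 gate was 0.92 (0.85 to 0.99) in PBS, 0.85 (0.78 to 0.92) in mix and 0.80 (0.60 to 0.99) in homo, which in PBS exceeded that of 87.3% of tested genes. Its partner Tap2 had 0.74, 0.78 and 0.83. H2-Q7 had 0.76 (0.71 to 0.81), 0.73 (0.69 to 0.78) and 1.198 (1.08 to 1.31), so that the homo value lay outside the intervals of the other libraries. The same held for H2-K1, at 0.62 (0.60 to 0.65), 0.57 (0.54 to 0.59) and 0.88 (0.83 to 0.93). H2-D1 had 0.64, 0.60 and 0.74, and H2-T23 had 0.63, 0.67 and 0.66. Whether these ratios differ between libraries was not tested. B2m, at 0.16, 0.13 and 0.33, and Nlrc5, at 0.05 (-0.11 to 0.21), 0.11 (-0.03 to 0.26) and 0.38 (0.00 to 0.74), did not reach 1.5-fold in any library. Tapbp had 0.47, 0.39 and 0.57 and lay between these groups of genes.

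How far the gates differed depended on the scale. Genes of ribosomal proteins, mitochondria and T cell receptors took 25.6%, 25.3% and 28.1% of UMIs in the CD8 gates of PBS, mix and homo, and 15.9%, 16.0% and 18.1% in the Foxp3 gates. Scaled by the median ratio of all genes, 1, 2 and 2 members were 1.5-fold higher in the Foxp3 gate: Tap1 in PBS, Tap1 and Tap2 in mix, and H2-K1 and H2-Q7 in homo. On that scale B2m and Nlrc5 lay below 0 in PBS and mix, and the other 7 members above 0, while in homo all 9 lay above 0. Nlrc5 in homo was at -0.09 when barcodes were thinned to 2000 UMIs. Of all 1.5-fold calls, the share that was higher in the Foxp3 gate was 70.0%, 70.4% and 74.7% by total UMIs, and 54.3%, 52.9% and 52.5% by the median ratio. Without barcodes that held a UMI of Lyz2, Apoe, C1qa, C1qb, C1qc, Csf1r, H2-Aa, Flt3 or Clec9a, genes of macrophages and dendritic cells, 6, 5 and 6 members were 1.5-fold higher by total UMIs.

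**Figure D2:**
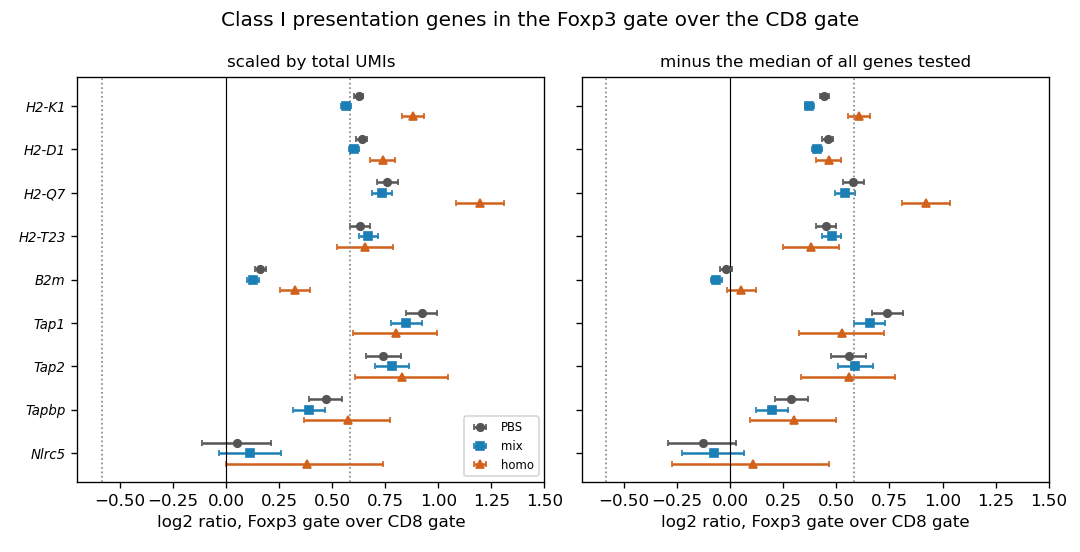
Log2 ratio of CPM between the Foxp3 gate and the CD8 gate (x axis) for each of the 9 genes (y axis) in PBS, mix and homo, scaled by total UMIs on the left and with the median of all genes tested taken off on the right; bars are exact 95% counting intervals and dotted lines mark 1.5-fold. On the left all points lie above 0, and on the right B2m and Nlrc5 in PBS and mix lie at or below 0 while the heavy chains and the transporter stay above it.

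Genes around the members were given by 6 lists, with counts scaled by total UMIs. Of all genes tested, 22.3%, 22.8% and 29.7% were 1.5-fold higher in the Foxp3 gate of PBS, mix and homo. Lower were 9.55%, 9.57% and 10%. Among the transcription factors that act on class I genes, 6 of 11 tested were 1.5-fold higher in the Foxp3 gate of PBS and 1 was lower (median log2 ratio 0.66), with 6 of 11 in mix and 8 of 10 in homo. Stat2, a mediator of type I interferon signals, had a log2 ratio of 1.19 in PBS, 1.17 in mix and 0.70 in homo. Of the receptors, kinases and inhibitors of interferon signals, 5 of 11 were higher in PBS (median 0.58), 5 of 11 in mix and 6 of 10 in homo. Jak2, a kinase of the interferon-gamma receptor, had 1.503, 1.55 and 1.61, while Ifng, the cytokine itself, had -4.97, -4.59 and -5.12.

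The peptide generation list had medians near those of all genes, and the peptide loading list lower ones. Among other class I heavy chains, 1 of 4 tested was higher in PBS, 1 of 4 in mix and 3 of 4 in homo (medians 0.47, 0.37 and 0.73). In peptide generation, 2 of 7 were higher in PBS, 2 of 8 in mix and 3 of 8 in homo (medians 0.25, 0.21 and 0.22). In peptide loading and quality control, 1 of 6 was higher in PBS, 1 of 6 in mix and 0 of 6 in homo (medians 0.06, 0.00 and 0.05). Psmb9, whose window overlaps that of Tap1, had log2 ratios of 0.53, 0.57 and 0.26, each under 1.5-fold. All 3 tested receptors that bind class I molecules were lower in the Foxp3 gate in each library. Klrd1 (CD94), which pairs with Klrc1 (NKG2A), stood at 9.31 CPM in the Foxp3 gate and 1423 in the CD8 gate of PBS, and Klrc1 at 43.0 and 864.

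The CD4 gate lay between the others for most members and was mixed from barcode to barcode. Against the CD8 gate the members' median log2 ratio was 0.40 in PBS, 0.21 in mix and 0.28 in homo, beside 0.17, 0.15 and 0.20 over all genes. By 1.5-fold, 0 members differed in PBS and in mix, where 21.5% and 18.7% of genes were higher and 7.51% and 8.21% lower. In homo H2-Q7 was higher, with a log2 ratio of 0.78 (0.60 to 0.95), and Nlrc5 lower, with -0.80 (-1.61 to -0.10), beside 24.7% of genes higher and 8.56% lower. The higher share of all 1.5-fold calls was 74.1%, 69.5% and 74.3% by total UMIs and 55.3%, 52.9% and 53.4% by the median ratio. From the CD4 to the Foxp3 gate, 0 members were 1.5-fold higher in PBS, 1 in mix (H2-Q7, 0.65) and 2 in homo (Tapbp, 0.76, and Nlrc5, 1.18), where 9.52%, 9.73% and 17.6% of genes were higher. No member was 1.5-fold lower in the Foxp3 gate than in the CD4 gate, beside 8.75%, 7.88% and 11.9% of genes. In that comparison the higher share of calls, 52.1%, 55.2% and 59.6%, was 41.9%, 40.0% and 47.9% when totals left out receptor, mitochondrial and ribosomal genes, and in mix it was 44.9% by the median ratio.

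Thinned to 2000 UMIs each, barcodes of the CD8 gate held a median of 24, 25 and 23 UMIs of the 9 genes in PBS, mix and homo. Barcodes of the Foxp3 gate held 36, 38 and 38. The middle of the distributions hardly met: in PBS the upper quartile of the CD8 gate was 30 and the lower quartile of the Foxp3 gate 29. In the CD4 gate the medians were 29, 28 and 24.5, and the quartiles were 20 and 39 in PBS, 16 and 39 in mix, and 18.2 and 40.8 in homo. The variance over the mean was 5.11, 6.57 and 8.03 there, against 3.06, 3.23 and 3.06 in the CD8 gate and 3.65, 3.79 and 4.77 in the Foxp3 gate. Barcodes of the CD4 gate thus ranged from levels seen in the CD8 gate to levels seen in the Foxp3 gate. Il2ra, a regulatory T cell marker, stood in the CD4 gate at 256 CPM in PBS, 328 in mix and 265 in homo, against 802, 867 and 563 in the Foxp3 gate. The part of cells whose Foxp3 RNA was not captured in this spread was not tested.

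**Figure D3:**
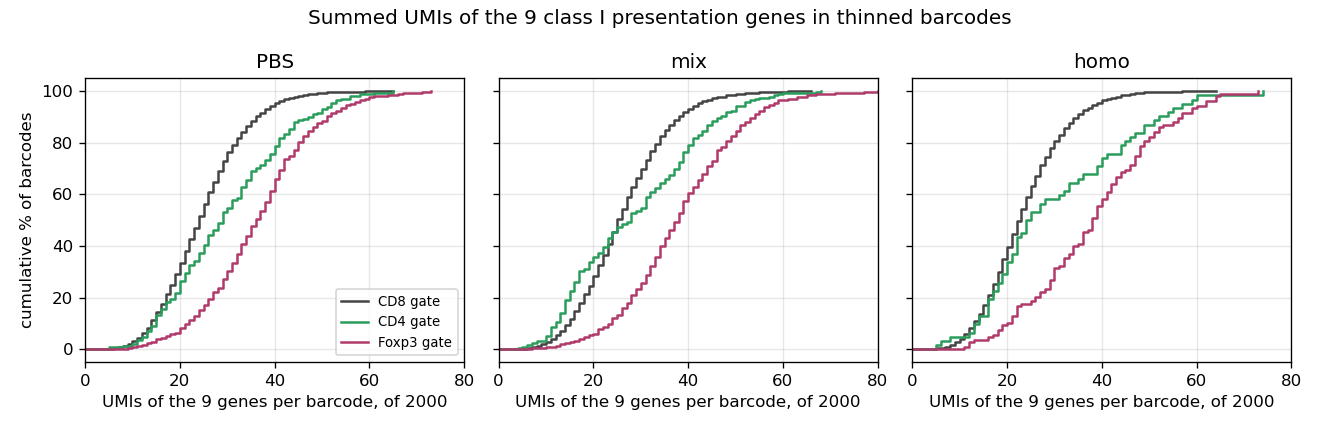
Cumulative percent of barcodes (y axis) by the summed UMIs of the 9 genes per barcode after thinning to 2000 UMIs (x axis), for the CD8, CD4 and Foxp3 gates in each library. The Foxp3 curve lies to the right of the CD8 curve, with medians of 36 and 24 in PBS, and the CD4 curve is flatter and runs from the CD8 curve at low values towards the Foxp3 curve at high values.

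Shares of thinned barcodes with a UMI were higher in the Foxp3 gate than in the CD8 gate for Tap1, Tap2, Tapbp, H2-Q7 and H2-T23 in each library, and not for Nlrc5 in PBS and homo. For Tap1 and Tap2 the share of the CD4 gate lay between those of the CD8 and Foxp3 gates in each library. Among these genes it fell below the CD8 share for H2-Q7 in mix, Tapbp in homo and H2-T23 in PBS (76.7%) and mix (76.8%). H2-Q7 had a UMI in 71.5% of CD4 and 76.4% of CD8 barcodes in mix, and Tapbp in 37.1% and 42.2% in homo. Tap1 had a UMI in 42.3% of CD8 barcodes in PBS (41.1% to 43.4%, exact Clopper-Pearson), 43.0% in mix and 38.7% in homo, and in 64.0% (60.3% to 67.5%), 63.2% and 59.3% of Foxp3 barcodes. Before thinning, these were 72.7%, 76.1% and 77.0% for the CD8 gate and 78.3%, 79.3% and 71.8% for the Foxp3 gate. H2-T23 had a UMI in 77.8%, 79.0% and 68.5% of CD8 barcodes (94.5%, 94.6% and 92.5% unthinned). Nlrc5 had one in 20.0%, 21.6% and 19.7% (40.8%, 48.0% and 49.3% unthinned), and in 19.2%, 23.2% and 19.4% of Foxp3 barcodes (30.2%, 37.5% and 37.9% unthinned). H2-K1, H2-D1 and B2m were found in 96.8% to 100% of thinned barcodes in every gate and library. Thinning left out 334, 299 and 403 barcodes of the CD8 gate, 72, 46 and 8 of the CD4 gate and 123, 97 and 16 of the Foxp3 gate. Class I genes are active in nearly all nucleated cells, so no gate could serve as a background that lacks them.

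Between libraries the differences in the CD8 gate were small, and no member reached 1.5-fold in any of the 3 comparisons. Of all genes tested, 3.05% were 1.5-fold higher and 4.71% lower in homo than in PBS, 0.407% and 0.475% in mix than in PBS, and 2.90% and 4.76% in homo than in mix. The comparisons with PBS share that library, and their values are given side by side. In homo over PBS the members had log2 ratios from -0.39 to 0.18 with a median of -0.14 (all genes -0.05). In mix over PBS they ran from -0.01 to 0.22 with a median of 0.11 (all genes -0.01), and in homo over mix from -0.43 to 0.02 with a median of -0.25 (all genes -0.05).

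H2-T23 had the lowest ratio of homo to PBS among the 9, at -0.39 (-0.42 to -0.37), with 10.0% of tested genes lower, and 0.04 (0.02 to 0.06) in mix over PBS. H2-D1 had 0.18 (0.17 to 0.20) in homo and 0.16 (0.15 to 0.17) in mix. H2-K1 had -0.14 (-0.15 to -0.13) in homo and 0.11 (0.10 to 0.12) in mix. Thus the classical heavy chains stood on opposite sides of 0 in homo and on the same side in mix. H2-Q7 had -0.17 (-0.19 to -0.14) and 0.22 (0.19 to 0.24), and B2m -0.09 (-0.10 to -0.08) and 0.04 (0.03 to 0.05). The transporter and its partner gave -0.13 and 0.06 for Tap1, -0.27 and -0.01 for Tap2, and -0.15 and 0.17 for Tapbp, in homo and in mix. Nlrc5 gave 0.01 (-0.05 to 0.07) and 0.21 (0.14 to 0.27). In homo over mix H2-D1 was at 0.02 (0.01 to 0.03) and the other members lay below 0. The median over all genes was also below 0, at -0.05, and the share of all genes below 0 was not counted.

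**Figure D4:**
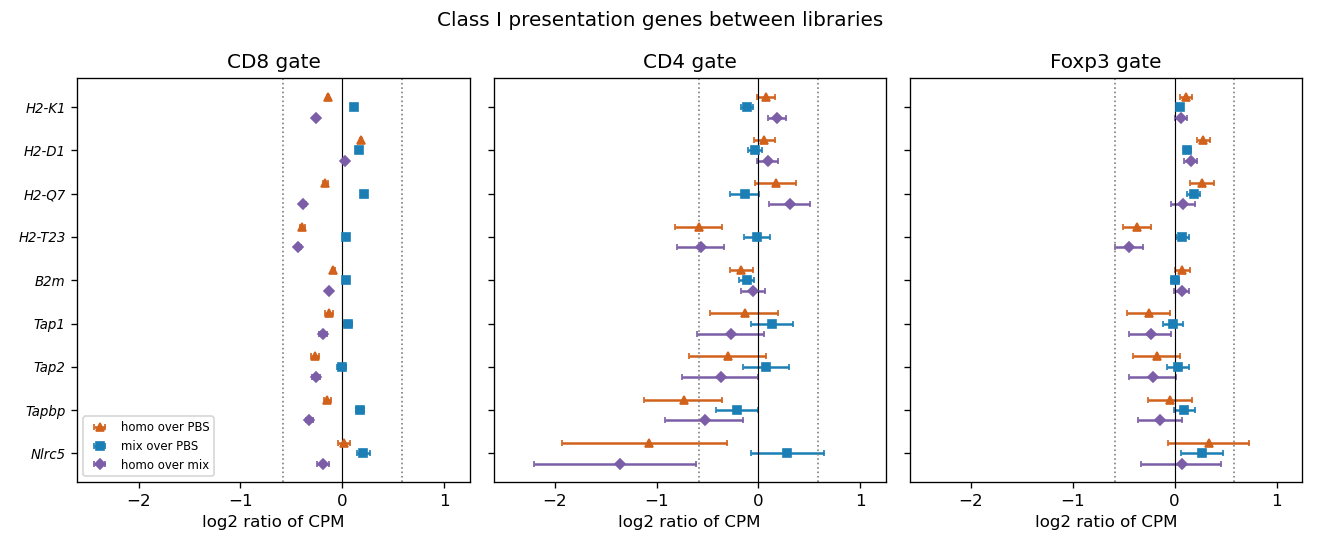
Log2 ratio of CPM between libraries (x axis) for each of the 9 genes (y axis) in the CD8, CD4 and Foxp3 gates; bars are exact 95% counting intervals, and dotted lines mark 1.5-fold. In the CD8 gate every point lies between -0.43 and 0.22, H2-T23 in homo lies left of 0 in all gates, and the widest bars belong to the CD4 gate of homo with its 70 barcodes.

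The ratio of H2-K1 to H2-D1 UMIs, which does not depend on how totals are scaled, set homo apart in the CD8 gate. Whether reads shared between class I genes bear on this ratio was not tested. There were 147158 UMIs of H2-K1 and 107058 of H2-D1 in PBS, a ratio of 1.37 (1.36 to 1.39). Mix held 137368 and 103348, a ratio of 1.33 (1.32 to 1.34), and homo 165272 and 150660, a ratio of 1.10 (1.09 to 1.10). In the Foxp3 gate the ratios were 1.36 (1.33 to 1.39), 1.30 (1.27 to 1.32) and 1.21 (1.15 to 1.28), and in the CD4 gate 1.33 (1.28 to 1.40), 1.26 (1.21 to 1.32) and 1.35 (1.24 to 1.47). Homo was thus lowest in the CD8 and Foxp3 gates and not in the CD4 gate. Splitting the CD8 gate left the order in place in each of 6 subsets: in cycling barcodes 1.38, 1.35 and 1.09, in barcodes without cycling genes 1.37, 1.32 and 1.10, and in barcodes with Tcf7 and no Havcr2 1.49, 1.41 and 1.24. The 6 subsets share barcodes of the same gate, so they are not separate checks of the ratio. Under the other ways of counting tried for the CD8 gate, the ratio in homo stayed between 1.10 and 1.11.

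Marker lists and subset shares of the CD8 gate differed between libraries. The dendritic list stood at 110.1, 96.1 and 24.9 CPM in PBS, mix and homo. Most of it came from Ccr7 (50.1, 47.6 and 16.7) and Cd74 (41.7, 34.8 and 5.17), while Clec9a had 2, 2 and 0 UMIs. The macrophage list stood at 19.0, 6.36 and 5.10 CPM. The NK list stood at 262, 302 and 323, mostly from Fcer1g (219, 263 and 280), with Ncr1 at 0.02, 0.45 and 0.18. The part of other cell types in these sums was not tested. Cycling barcodes (a UMI of Mki67 or Top2a) made up 21.4%, 23.2% and 29.8% of the CD8 gate in PBS, mix and homo. Barcodes with a UMI of the interferon-induced genes Ifit1, Ifit3 or Rsad2 made up 60.4%, 69.3% and 54.7%. Median UMIs per barcode also differed, at 5113, 5651 and 6912, and the part of depth in these shares was not tested. Within the 6 subsets, H2-T23 had log2 ratios of homo to PBS from -0.47 to -0.27, and H2-D1 from 0.13 to 0.40. H2-K1 lay between -0.20 and -0.11 in 5 of them, and at 0.13 in barcodes with Tcf7 and no Havcr2. In that Tcf7 subset H2-Q7 had 0.16 and B2m 0.08, also above 0, unlike the whole gate. These splits were made after the values of the whole gate had been seen.

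Of the 38 surrounding genes tested in the CD8 gate, 5 differed 1.5-fold between homo and PBS, beside 3.05% of all genes higher and 4.71% lower. Socs1, an inhibitor of interferon signals, stood at 85.1 CPM in homo and 164 in PBS (log2 ratio -0.95), Irf8 at 159 and 299 (-0.90), Ifng at 219 and 377 (-0.79), and Hspa5, a chaperone of the endoplasmic reticulum, at 272 and 431 (-0.66). Cd160, a receptor that binds class I molecules, stood at 124 and 69.4 (0.84). None of the other class I heavy chains (0 of 4, median -0.26) and none of the peptide generation genes (0 of 7, median -0.21) reached 1.5-fold, and Psmb9 had 0.05. In mix over PBS none of the 38 listed genes tested was 1.5-fold apart, beside 0.407% of all genes higher and 0.475% lower.

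In the Foxp3 gate no member reached 1.5-fold between libraries, beside 8.12% of genes higher and 7.36% lower in homo than in PBS, 0.381% each way in mix, and 6.85% and 6.64% in homo over mix. The regulatory T cell list stood in this gate at 7484, 7028 and 5634 CPM in PBS, mix and homo, with all 6 genes detected. Its genes did not all run the same way. Tnfrsf4 stood at 3247, 2893 and 2045 CPM, Foxp3 at 796, 784 and 757, and Ikzf2 at 938, 1027 and 1359. The dendritic list stood at 629.8, 783 and 282 CPM, of which Cd74 made up 522, 630 and 241. It had 6, 8 and 5 of 8 genes detected, with Clec9a at 0 in PBS and homo. The macrophage list stood at 49.6, 40.1 and 2.09 CPM with 7, 7 and 1 of 8 detected, and the NK list at 97.0, 34.2 and 6.27 with Ncr1 at 0 in each. The macrophage value in homo was 1 UMI, of Apoe. The gate held 3328252, 3393936 and 478164 UMIs, and fewer genes are detected with fewer UMIs. The part of these lists in the differences between libraries was not tested. H2-T23 was again lower in homo, at -0.37 (-0.51 to -0.23) against PBS and -0.45 (-0.59 to -0.31) against mix. H2-D1 had 0.28 (0.22 to 0.35), H2-Q7 0.27 (0.15 to 0.39) and H2-K1 0.11 (0.06 to 0.17) in homo over PBS, so that these 3 heavy chains were on the other side of 0 from H2-T23. In mix over PBS the 9 ratios ran from -0.02 to 0.27, with Nlrc5 highest at 0.27 (0.06 to 0.48). Usp18, a brake on type I interferon signals, stood at 117 CPM in homo, 249 in PBS and 314 in mix.

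In the CD4 gate 2 members were 1.5-fold lower in homo than in PBS, beside 13.4% of all genes lower and 9.93% higher. Tapbp had a log2 ratio of -0.73 (-1.13 to -0.36) and Nlrc5 -1.07 (-1.93 to -0.31), the latter on 16 UMIs in homo. H2-T23, at -0.58 (-0.82 to -0.36), was just under 1.5-fold. Against mix, Nlrc5 was the 1 member past 1.5-fold, at -1.36 (-2.20 to -0.61), beside 11.4% of genes lower and 10.6% higher, and in mix over PBS there was none, beside 2.66% and 2.21%. The summed dendritic list of 8 genes stood in this gate at 1539, 477 and 76.2 CPM in PBS, mix and homo. Of these genes, 6, 7 and 4 were detected. At 0 were Clec9a and Fscn1 in PBS, Xcr1 in mix, and Flt3, Xcr1, Clec9a and Fscn1 in homo. Most of the dendritic sum came from Cd74 (904, 229 and 32.6 CPM), Ccr7 (326, 188 and 29.0) and H2-Aa (298, 49.5 and 3.63). Zbtb46 ran the other way, at 6.42, 7.48 and 10.9 CPM, on 6, 8 and 3 UMIs. Flt3, Xcr1, Clec9a and Fscn1 had at most 3 UMIs in any library. The macrophage list of 8 genes stood at 30.0, 3.74 and 3.63 CPM, with 6, 3 and 1 of its genes detected and Adgre1 at 0 in all 3. Its value in homo was 1 UMI, of Cd14. The gate held 934425, 1070007 and 275746 UMIs, and fewer genes are detected with fewer UMIs. Without the 10, 6 and 1 barcodes that held a UMI of Lyz2, Apoe, C1qa, C1qb, C1qc, Csf1r, H2-Aa, Flt3 or Clec9a, 3 members were 1.5-fold lower in homo than in PBS, with Tapbp at -0.71, Nlrc5 at -1.36 and H2-T23 at -0.60. Barcodes with Cd74 or Ccr7 and none of those genes stayed in. The NK cell list of 5 genes stood at 261, 62.6 and 18.1 CPM, with Ncr1 at 0 in mix and in homo. The part of these cell types in the ratios was not tested further.

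Within the CD8 gate of each library, barcodes with a UMI of Ifit1, Ifit3 or Rsad2 had more of every member. The 9 log2 ratios to the other barcodes ran from 0.13 to 0.56 in PBS, 0.15 to 0.53 in mix and 0.17 to 0.59 in homo, with medians of 0.28, 0.32 and 0.27, beside -0.05, -0.04 and -0.04 over all genes. By 1.5-fold, 0, 0 and 1 member were higher, beside 5.86%, 4.99% and 4.23% of genes higher and 0.888%, 0.627% and 0.717% lower. The share of all genes with a ratio above 0 was not counted. Tapbp had 0.56 (0.50 to 0.61), 0.52 (0.46 to 0.58) and 0.59 (0.54 to 0.64), and exceeded 93.8% of tested genes in PBS. Nlrc5 had 0.54 (0.44 to 0.63), 0.53 and 0.43, Tap1 0.48 (0.43 to 0.54), 0.46 and 0.45, and H2-T23 0.42 (0.38 to 0.45), 0.44 and 0.55. B2m, with 0.13, 0.15 and 0.22, had the lowest ratio of the 9 in PBS and mix, and H2-Q7, with 0.26, 0.28 and 0.17, in homo. H2-K1 had 0.23, 0.27 and 0.27, H2-D1 0.20, 0.23 and 0.21, and Tap2 0.28, 0.32 and 0.18. Median UMIs per barcode in marked and unmarked barcodes were 4944 and 5417 in PBS, 5662 and 5623 in mix and 6900 and 6920.5 in homo. Among the lists, Usp18 had 2.33, 2.08 and 2.43, and H2-T22, another non-classical heavy chain, 0.73, 0.79 and 0.71.

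Cycling barcodes of the CD8 gate had slightly less of most members. The 9 log2 ratios of cycling to other barcodes ran from -0.31 to 0.02 in PBS, -0.26 to 0.06 in mix and -0.24 to 0.02 in homo, with medians of -0.16, -0.12 and -0.21, beside 0.00, 0.01 and 0.00 over all genes. No member reached 1.5-fold, beside 6.52%, 5.15% and 6.38% of genes higher and 0.807%, 0.391% and 0.432% lower. Tap1 was the 1 member above 0 in each library, at 0.02, 0.06 and 0.02, with intervals that held 0, and it lay on the other side of 0 in PBS and homo when totals left out receptor, mitochondrial and ribosomal genes. Nlrc5 had -0.31 (-0.41 to -0.20), -0.26 and -0.24, and H2-D1 -0.21, -0.17 and -0.21. Median UMIs per barcode were 7066, 7693 and 9215 in cycling barcodes and 4771, 5201 and 6225 in the others.

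Barcodes with Havcr2 and no Tcf7, marks of advanced exhaustion, were set against those with Tcf7 and no Havcr2, marks of a stem-like state. H2-D1 was higher in the Havcr2 barcodes, with log2 ratios of 0.44 (0.40 to 0.47) in PBS, 0.50 (0.46 to 0.53) in mix and 0.17 (0.14 to 0.20) in homo. H2-K1 had 0.27 (0.24 to 0.30), 0.38 (0.35 to 0.41) and -0.06 (-0.09 to -0.03), and H2-Q7 0.10, 0.25 and -0.25 (-0.30 to -0.19). In homo these ratios lay below those of the other libraries, and for H2-K1 and H2-Q7 on the other side of 0, although H2-K1 was at 0.04 when barcodes were thinned to 2000 UMIs. Nlrc5 was lower in the Havcr2 barcodes of every library, at -0.37 (-0.53 to -0.21), -0.35 (-0.50 to -0.19) and -0.25 (-0.39 to -0.11). No member reached 1.5-fold, beside 14.7%, 14.6% and 8.37% of genes higher and 10.6%, 10.7% and 7.82% lower. The higher share of calls, 58.1%, 57.6% and 51.7%, was 42.0%, 40.8% and 39.5% when totals left out receptor, mitochondrial and ribosomal genes. On that scale H2-Q7 in PBS turned to -0.05, Tap2 and Tapbp lay below 0 in all 3 libraries, Tap1 below 0 in PBS and homo, and B2m and H2-T23 below 0 in homo. Of the surrounding genes, Irf8 had 2.87, 2.81 and 1.51, Ifng 2.25, 3.05 and 1.79, and Ifnar2, a subunit of the type I interferon receptor, -1.90, -1.57 and -1.18.

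**Figure D5:**
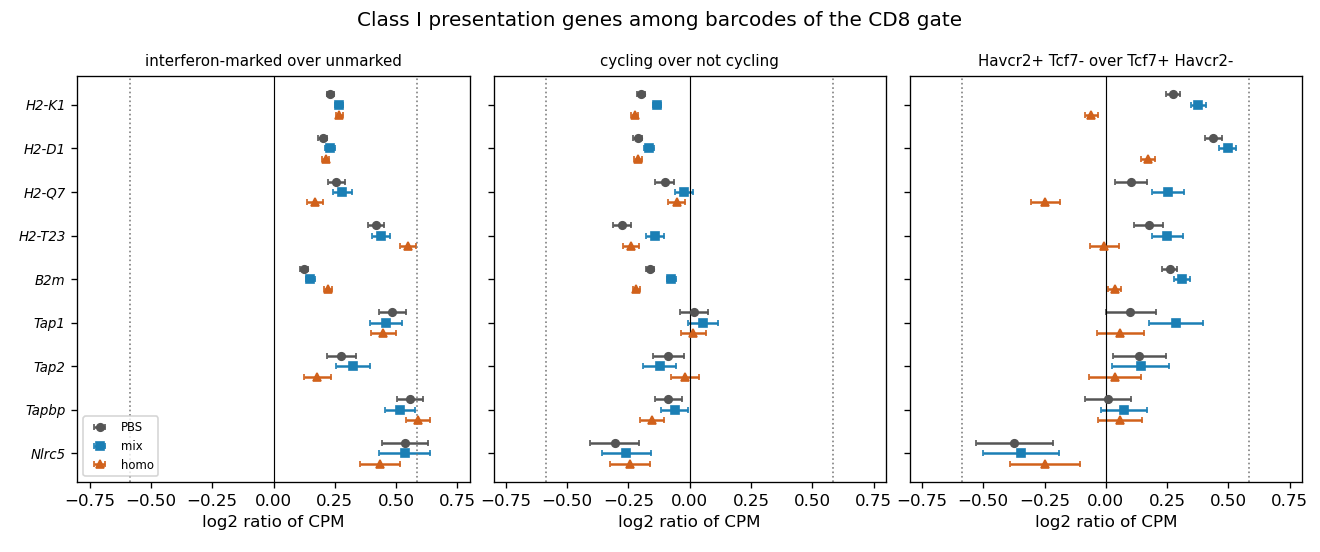
Log2 ratio of CPM between barcodes of the CD8 gate within 1 library (x axis) for each of the 9 genes (y axis): interferon-marked over unmarked, cycling over not cycling, and Havcr2 over Tcf7; bars are exact 95% counting intervals and dotted lines mark 1.5-fold. All points of the first panel lie above 0, most of the second below 0, and in the third Nlrc5 lies below 0 in all libraries while H2-D1 lies above it.

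From barcode to barcode within the CD8 gate, the classical heavy chains had the highest correlation of counts. Counting error lowers r, and more so for genes with few UMIs. H2-K1 and H2-D1 had means of 7.69 and 5.57 UMIs per thinned barcode in PBS, with a variance over the mean of 2.07 and 1.71. The order of pairs therefore does not show which genes vary together most closely. After thinning, Pearson's r between H2-K1 and H2-D1 was 0.388 in PBS (6783 barcodes), 0.408 in mix (5288) and 0.419 in homo (6114), the highest of the 36 pairs in each library. H2-K1 and H2-Q7 had 0.244, 0.285 and 0.262, and H2-D1 and H2-Q7 0.224, 0.272 and 0.228. H2-K1 and H2-T23 had 0.200, 0.231 and 0.207, and H2-D1 and B2m 0.196, 0.227 and 0.198. Pairs with Nlrc5 were near 0, such as B2m and Nlrc5 at 0.019, 0.027 and 0.013, and Nlrc5 had a UMI in 19.7% to 21.6% of these barcodes. Tap1 and Tap2, which work as a pair, had 0.043, 0.057 and 0.021. Their means in PBS were 0.573 and 0.508 UMIs per thinned barcode, with a variance over the mean of 1.09 and 1.10. In homo Tap2 had 0.996, and counting error alone gives about 1. Such counts leave little room for r, so these values do not show whether the 2 genes vary together. The barcodes of a gate share their library, so these values describe it and carry no p.

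Across the 9 sums (3 gates in 3 libraries), the mean pattern of the members was most like that of Cflar, an inhibitor of caspase-8, among 2205 other genes with at least 50 CPM in each sum, with Pearson's r of 0.983. Cflar stood at 76.8, 78.7 and 66.2 CPM in the CD8 gate of PBS, mix and homo and at 193, 209 and 182 in the Foxp3 gate. Next came Tpp2, a peptidase on the peptide generation list, at 0.978, then Sbno1, Gimap8, Ly6a, Psmc2, Gpx1, Serp1, Rab11a and Rngtt, down to 0.966. Ly6a, the surface protein Sca-1, stood at 2167, 2165 and 1654 CPM in the CD8 gate and at 5805, 5596 and 4411 in the Foxp3 gate, so homo was its lowest library in both. Of the members themselves, Tap2 was closest to their mean, at 0.968, and Nlrc5 farthest, at 0.508. The 9 points share libraries and gates, so r describes likeness only.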

How the data were processed

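The deposited values are raw UMI counts per gene and barcode, and per the file headers the authors' counting software was Cell Ranger 7.1.0. Cell Ranger 2.1.1, Seurat 4.1.0 and build mm39 are named in the submitters' processing notes. No column of another series was present (0). Barcodes entered with 500 or more genes, 1000 or more UMIs and a mitochondrial share below 10%, and those with the highest Scrublet scores (scanpy 1.11.5) were removed at 0.8% per 1000 kept barcodes. In PBS, mix and homo this removed 803, 527 and 485 barcodes, and 9214, 7588 and 7303 were analysed. UMIs were summed per gate and scaled to CPM of the gate's total. Levels carry an exact Poisson interval, ratios an exact conditional binomial interval, and shares an exact Clopper-Pearson interval. A gene entered a comparison at 50 CPM in either sum, and differences of at least 1.5-fold were counted. The script was tested on simulated data.

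The members and lists were chosen with earlier results of these data known. The 9 members are always named. Of the pathway lists, up to 6 genes per comparison with the largest log2 ratio among those 1.5-fold apart could be named. Psmb9 and single genes of the cell type lists, such as Il2ra, H2-Aa and Cd74, were chosen for naming after their values were seen. A gene named by the rule in 1 library may be given in the others too. Likeness used the 10 genes with the highest r. Of 17 listed other heavy chains, 14 were in the files. Python 3.11.15, numpy 2.4.6, scipy 1.17.1, pandas 2.3.3 and matplotlib 3.10.9 were used. Alternatives are given at the end. Single barcodes of a library are not replicates, and doublets may remain.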

Additional observations from a re-analysis of the deposited data

Results flagged for a closer look

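Several members stood on opposite sides of 0 in 2 gates under the same pair of libraries, with counting intervals that left out 0 in both. How many of all genes did the same was not counted, so this is not shown to be particular to the members. These differences between gates were not tested, because each group is 1 library. In homo over PBS, H2-K1 had a log2 ratio of -0.14 in the CD8 gate and 0.11 in the Foxp3 gate, and H2-Q7 had -0.17 and 0.27. B2m had -0.0866 in the CD8 gate and -0.17 in the CD4 gate, against 0.0763 in the Foxp3 gate. In mix over PBS, H2-K1 had 0.11 in the CD8 gate and 0.0535 in the Foxp3 gate, against -0.11 in the CD4 gate. In the same comparison B2m had 0.0392 in the CD8 gate and -0.11 in the CD4 gate, and Tapbp had 0.17 and -0.21. In homo over mix, H2-K1 had -0.25 in the CD8 gate, 0.19 in the CD4 gate and 0.0609 in the Foxp3 gate, and H2-Q7 had -0.38 in the CD8 gate and 0.31 in the CD4 gate. All of these ratios were under 1.5-fold. The CD4 and Foxp3 gates of homo held 70 and 124 barcodes.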

How the results depend on the processing

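Each of 27 comparisons was recomputed under 9 alternatives, and in addition, chosen after seeing the data, without barcodes holding a UMI of any of 9 macrophage or dendritic genes and, for the CD8 gate, within 6 subsets. Of 288 recomputed counts of members 1.5-fold apart, 266 were within 1.5 times the reported count and 22 were not. By the median ratio the Foxp3 over CD8 counts went from 6, 5 and 6 (PBS, mix, homo) to 1, 2 and 2, and without receptor, mitochondrial and ribosomal genes in the totals to 1 and 2 in PBS and mix. CD4 over CD8 in homo went from 2 to 1 by the median ratio and to 4 when thinned, and in mix from 0 to 1 when thinned. Foxp3 over CD4 in mix went from 1 to 0 on both other scales and to 2 with at least 2 lineage UMIs. Homo over mix in the CD4 gate went from 1 to 2 by the median ratio, when thinned, by the mean of per-barcode CPM and with at least 2000 UMIs. Interferon-marked over unmarked went from 0 to 1 in PBS by the median ratio, when thinned and by the mean CPM, and in mix by the last of these and when thinned. In homo it went from 1 to 2 by the median ratio and to 0 without doublet removal. The cause was not tested. No paired analysis was possible because each group has 1 library and no test was made. Depth limits the CD4 gate most, above all in homo with 70 barcodes, where Nlrc5 had 16 UMIs. Leaving out a replicate was not possible with 1 library per group.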

Other observations

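Barcodes outside the 3 gates gave further levels of the 9 genes. Their sum in barcodes with a CD3 gene and no lineage gene was 13975 CPM in PBS (517 barcodes), 14319 in mix (497) and 11393 in homo (170). In PBS and mix it lay near the CD4 gates, at 14421 and 13691, and in homo nearer the CD8 gate, at 11143, than the CD4 gate, at 13900. Barcodes with CD8 genes and Foxp3 gave 14303, 14692 and 11722 CPM, between the CD8 gate (11666, 12545 and 11143) and the Foxp3 gate (16869, 17731 and 18213). Their median UMIs were 6111.5, 6358 and 13271 per barcode, higher than in either gate, and the part of doublets in them was not tested. The 51 homo barcodes over the mitochondrial limit gave 4173 CPM (3710 to 4678).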
